A study of Mus musculus with 2 samples.

Results

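Among the regions that an anti-E2F1 antibody enriched in mouse hepatocytes, some lay at the promoters of more than 1 gene at once. A peak was counted as shared where the authors' own assignment named it a promoter peak of at least 2 genes with different symbols. By this rule 344 of the 5667 listed peaks were shared, or 6.07%. They made up 13.1% of the 2625 peaks at promoters. The promoters of 2 genes met at 343 of them and those of 3 genes at 1. Together they named 685 genes, of which 652 were matched to a protein-coding gene of RefSeq, 14 to a non-coding RNA or pseudogene, and 19 to no entry.

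The peaks were called from chromatin pulled down with the anti-E2F1 antibody c20 (E2F1 ChIP) and set against input chromatin taken without an antibody. Both records are from primary hepatocytes of C57Bl6J mice that had received the adenovirus Ad-E2F1 36 h earlier, so both carried the vector for E2F1, and hepatocytes without this virus were not analysed here. The labels give 1 record of each kind, and the series text speaks of 2 replicates, each a combination of 2 ChIPs. The list gives 1 set of values per peak and none per replicate, the read depth of the libraries is unknown, and no value below carries a replicate error. A peak list holds no expression values, so the cell type could not be checked against markers.

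E2F1 is a transcription factor that binds DNA together with a DP partner and is known for switching on genes of DNA synthesis at the start of S phase. Its textbook site is a run of T followed by C or G bases and the letters CGC, often close to a transcription start site (TSS). Genes that start close together on opposite strands share a divergent promoter, and such promoters are common at genes for DNA repair, histones and mitochondrial proteins. A factor bound there lies near the starts of both genes, and the position of a peak alone does not tell which of them it acts on.

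The strand of both genes was known from RefSeq promoter records (build GRCm38.p6) for 242 pairs. All 242 had their genes on opposite strands and 0 had them on the same strand. How the authors' assignment treats neighbours on the same strand is not stated in the labels. In 92.6% of the 242 pairs (exact binomial 95% interval 88.5% to 95.5%) the TSSs pointed away from each other with a gap between them, and in the others the starts overlapped. For 184 pairs the RefSeq gap lay within 50 bp of what the authors' mm9 distances allow. In these the gap ranged from -346 to 2526 bp, a negative gap meaning that the transcribed parts overlap, with a median of 163.5 bp and quartiles of 75 and 302.25 bp. A gap of 0 to 300 bp was found in 123 of the 184, one of 301 to 1000 bp in 29 and one of more than 1000 bp in 18, and 14 pairs overlapped. Among the 184 pairs the gaps nearest to 0 were 1 bp between Capza1 and St7l, -4 bp between Pmm2 and Tmem186, and 5 bp between Kars and Terf2ip. The largest among them were 2526 bp between Pfn1 and Eno3, 2285 bp between Clec16a and Dexi, and 1966 bp between Aph1a and BC028528. Where several RefSeq starts fitted the distances equally well, the smallest gap was taken. That choice favours gaps near 0, above all where the window holds both starts, as at the pairs nearest to 0. In 91 pairs the authors' distances alone fix the mm9 gap, if the genes lie on opposite strands. It ranged there from -386 to 3303 bp, with a median of 221 bp.

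The whole stretch between the starts can be read where the gap is short. The sequence under the mm9 windows was not read. The stretches below belong to pairs with a strong peak and a cell cycle, histone or repair gene, or to pairs of highest fold. That of Ranbp1 was added because it holds several words. These 9 stretches are a choice, and not all of their kind are shown. Each is given 5′ to 3′ towards the gene named first, from the base after the start of the other gene to the base before its own start, from RefSeq build GRCm38.p6. Capitals mark the short E2F word searched below.
Tcf19 and Cchcr1, chr17:35516825-35517048, minus strand: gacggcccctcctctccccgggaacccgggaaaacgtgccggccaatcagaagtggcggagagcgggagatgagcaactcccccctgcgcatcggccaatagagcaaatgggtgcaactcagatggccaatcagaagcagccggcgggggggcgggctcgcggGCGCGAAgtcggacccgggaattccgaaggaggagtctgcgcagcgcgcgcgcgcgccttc
Cnpy4 and Taf6, chr5:138187452-138187534, plus strand: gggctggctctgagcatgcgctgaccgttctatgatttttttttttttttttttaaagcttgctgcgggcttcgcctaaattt
Hist1h2ah and Hist1h2bk, chr13:22035644-22035820, minus strand: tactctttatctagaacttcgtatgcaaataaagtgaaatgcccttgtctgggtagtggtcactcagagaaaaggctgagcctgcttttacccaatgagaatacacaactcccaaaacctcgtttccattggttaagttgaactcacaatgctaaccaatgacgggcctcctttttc
Hist1h2ag and Hist1h2bj, chr13:22042950-22043197, minus strand: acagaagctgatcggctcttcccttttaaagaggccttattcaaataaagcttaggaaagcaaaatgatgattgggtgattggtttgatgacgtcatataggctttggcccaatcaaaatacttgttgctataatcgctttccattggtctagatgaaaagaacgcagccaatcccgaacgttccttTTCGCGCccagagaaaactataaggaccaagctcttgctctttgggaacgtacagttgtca
Cdca5 and Zfpl1, chr19:6084976-6085096, plus strand: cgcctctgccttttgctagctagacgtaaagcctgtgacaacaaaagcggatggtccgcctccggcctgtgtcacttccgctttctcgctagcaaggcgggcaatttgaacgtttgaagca
Mrps12 and Sars2, chr7:28741822-28741967, minus strand: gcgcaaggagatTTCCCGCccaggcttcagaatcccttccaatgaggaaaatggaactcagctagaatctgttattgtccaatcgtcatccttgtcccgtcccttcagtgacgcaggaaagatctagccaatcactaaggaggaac
Ranbp1 and Trmt2a, chr16:18248695-18248882, minus strand: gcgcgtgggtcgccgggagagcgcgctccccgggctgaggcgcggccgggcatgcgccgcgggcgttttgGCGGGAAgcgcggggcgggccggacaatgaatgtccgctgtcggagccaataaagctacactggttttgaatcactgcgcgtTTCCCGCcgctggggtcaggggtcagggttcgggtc
Mutyh and Toe1, chr4:116807560-116807733, plus strand: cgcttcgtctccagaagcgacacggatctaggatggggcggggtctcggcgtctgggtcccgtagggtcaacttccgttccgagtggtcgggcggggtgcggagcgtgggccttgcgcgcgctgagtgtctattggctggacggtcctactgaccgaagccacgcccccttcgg
Smc1a and Ribc1, chrX:152016296-152016427, plus strand: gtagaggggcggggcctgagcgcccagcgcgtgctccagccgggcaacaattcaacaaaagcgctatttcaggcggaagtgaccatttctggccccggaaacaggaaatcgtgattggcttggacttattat
The stretches at Tcf19, Hist1h2ag, Mrps12 and Ranbp1 held at least 1 capital word, and that at Ranbp1 held several. The other 5 held none, which says only that these letters are not in this stretch.

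E2F words were searched on both strands. The long words were TTTCCCGC, TTTCGCGC, TTTGCCGC and TTTGGCGC, and the short words were the same without the first T, so that every long word holds a short one. Of 101 stretches of 31 to 248 bases between starts, chromosome 18 left out, 18 (17.8%) held a short word. Over all RefSeq promoters, the same numbers of bases before the TSS held one in 4.41% on average. A long word stood in 5 of the 101 stretches (4.95%), against 0.995% over all promoters. Those with a long word were the stretches of Hist1h2ag and Hist1h2bj, Mrps12 and Sars2, Ranbp1 and Trmt2a, Foxred1 and Srpr, and 2810006K23Rik and Mphosph9. Every word holds the letters CG, which are rarer in promoters in general. Their median count per promoter was 7 over all promoters, 23 at shared peaks and 22 at single-gene peaks. The stretches were not set beside like stretches at single-gene peaks.

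In RefSeq promoters of 300 bases, from 250 before to 50 after the start, the genes at shared peaks could be set beside those at single-gene promoter peaks and beside all genes. Of 679 promoters of 553 genes at shared peaks, 27.4% held a short E2F word, against 26.2% of 2218 promoters of genes at single-gene peaks and 9.57% of all 32851 promoters. Long words were in 7.81% of the promoters at shared peaks, in 8.34% of those at single-gene peaks and in 2.26% of all promoters. The 7-letter word CCGGAAG of ETS factors, searched on both strands, was in 26.2% at shared peaks, 19.4% at single-gene peaks and 8.86% of all promoters. The CCAAT word was in 45.4% of promoters at shared peaks, 47.2% at single-gene peaks and 37.4% of all promoters. Promoters at shared peaks were richer in G and C than promoters in general, with a median of 60.7% against 60.7% at single-gene peaks and 52.7% over all promoters, and the starts of a close pair share much of their sequence, so their promoters are not independent. In promoters of genes at shared peaks with a fold of at least 10, 46.4% held a short E2F word, against 21.1% at the other shared peaks. These shares are descriptions of sequence, and no match was tested for binding.

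Each peak carries the authors' own values, namely the fold over the background expected from the input, the number of tags in the called region, the height of the pileup and the length of the region. The median shared peak had a fold of 6.91 (quartiles 5.11 and 9.74, range 3.03 to 49.01). The other medians were 197.5 tags (range 36 to 688), a height of 65.5 (range 24 to 430) and a length of 2119 bp (range 709 to 3986 bp). The 2281 single-gene promoter peaks had a median fold of 6.43, with 162 tags, a height of 59 and a length of 1845 bp. Over all listed peaks the medians were 4.93, 149 tags, 45 and 1914 bp. Tags per kilobase of region, which take out the length, had a median of 85.6 at shared peaks and 80.6 at single-gene peaks. No test was run on these differences, since peaks of 1 list are not replicates.

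**Figure D1:**
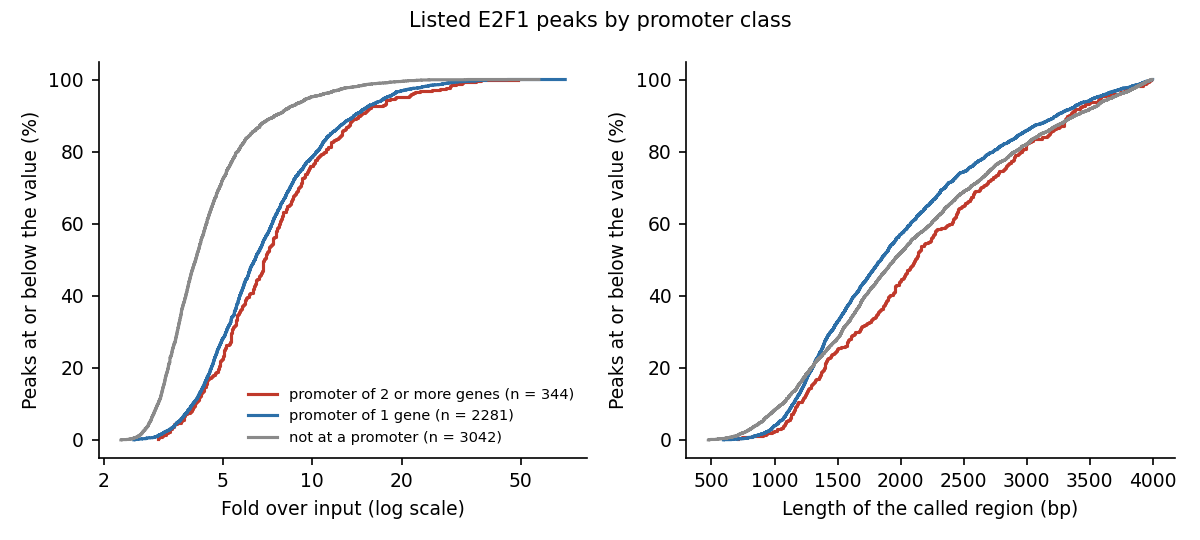
Cumulative share of peaks (percent) by the authors' fold over input (left, log scale) and by length of the called region in bp (right), for peaks at promoters of 2 or more genes, peaks at the promoter of 1 gene and peaks not at a promoter. The fold curves of both promoter classes run close together, with medians of 6.91 and 6.43, while the shared peaks are the longest class by median length (2119 bp).

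Of the shared peaks, 84 (24.4%, exact binomial 95% interval 19.97% to 29.3%) had a fold of at least 10, against 12.8% of all listed peaks. Among single-gene promoter peaks the share was 21.6% (19.9% to 23.4%). A false discovery rate of at most 1% was reached by 228 shared peaks (66.3%, interval 61.0% to 71.3%), against 39.8% of all listed peaks and 60.0% of single-gene promoter peaks (58.0% to 62.0%). The list gives each peak a window of 301 bp, and the classes were also set side by side by whether this window holds a TSS. The 96 shared peaks whose window holds both TSSs had a median fold of 6.995 (95% interval 5.97 to 7.82), against 6.86 (6.67 to 7.12) at the 1147 single-gene peaks whose window holds the TSS. The median tags were 209 (168 to 228) at these shared peaks and 159 (153 to 170) at these single-gene peaks. The median lengths were 2273.5 bp (1990 to 2561) at the shared and 1799 bp (1735 to 1855) at the single-gene peaks. Over both whole promoter classes the length intervals were 2021 to 2241 bp at shared and 1800 to 1891 bp at single-gene peaks. Those of tags were 180 to 210 and 157 to 169, and those of fold 6.64 to 7.4 and 6.23 to 6.59. For tags per kilobase they were 81.7 to 89.2 and 79.6 to 81.8. These intervals cover counting error over peaks only. Peaks are not replicates, so whether the intervals overlap is no test of a difference.

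Across the 344 peaks fold went with pileup height (Spearman coefficient 0.84) and less with tags (0.37), while tags went with length (0.76) and fold hardly did (-0.12). The same coefficients over the 2281 single-gene peaks were 0.81, 0.36, 0.80 and -0.04. All these values come from the same reads and are given as descriptions. The longest shared regions were those at Polh and Xpo5 (3986 bp), Gm10463 and Fosl2 (3977 bp), and Fam76b and Cep57 (3967 bp). The shortest, at 709 bp, lay at Pcsk4 and Reep6, with 36 tags and a fold of 5.15. It was followed by 739 bp at Hist1h2bl and Hist1h2ai and 823 bp at Ribc2 and Smc1b.

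The position of the window relative to both starts fell into 5 kinds. The window held 1 TSS and lay upstream of the other in 120 peaks (34.9%), with a median fold of 7.66. It held both in 96 peaks (27.9%), with a median fold of 6.995. In 67 peaks (19.5%) it lay inside one gene, past its start, and upstream of the other, with a median fold of 5.38. It held 1 TSS and lay past the other in 36 peaks (10.5%, median fold 6.84), and it lay upstream of both in 25 peaks (7.27%, median fold 7.40). A fold of at least 10 was found in 29.2% of the first kind, 27.1% of the second, 17.9% of the third, 13.9% of the fourth and 24.0% of the fifth, beside 12.8% over all listed peaks.

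**Figure D2:**
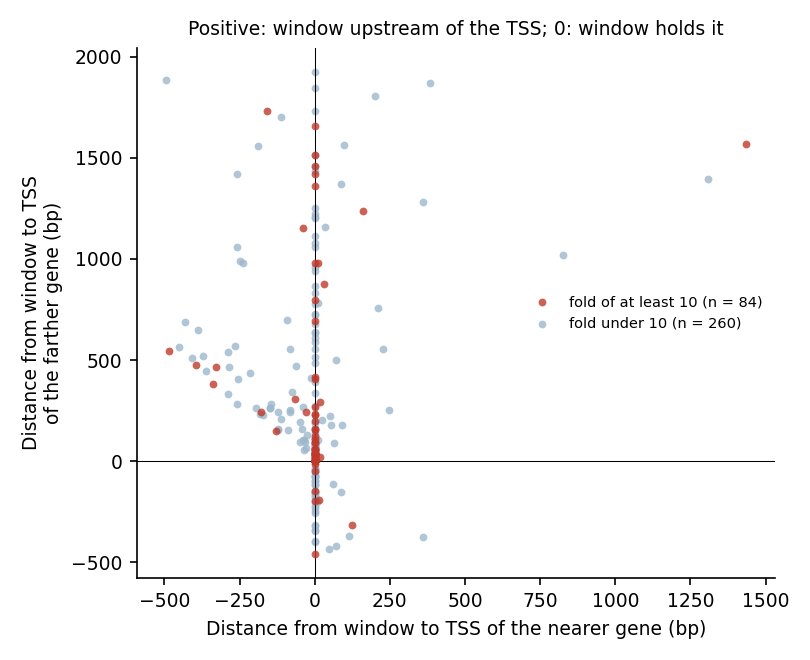
Signed distance in bp from the 301 bp window to the TSS of the nearer gene (x axis) and of the farther gene (y axis), 1 point per shared peak, coloured by whether the authors' fold reached 10. Points at 0 mark windows that hold the TSS, positive values windows upstream of it and negative values windows inside the gene; the 84 points that reach this fold occur in all 5 kinds of position.

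The distance to the farther gene ran up to 1925 bp, within the authors' promoter class of -499 to 1980 bp, where positive means upstream. Its size showed almost no relation to fold across the 344 peaks (Spearman coefficient -0.04). With the gap between starts, in the 184 pairs, the coefficient of fold was 0.15. By gap, the median fold was 6.69 for overlapping starts (n = 14), 5.80 for gaps of 0 to 100 bp (n = 42), 7.18 for 101 to 200 bp (n = 45), 8.12 for 201 to 300 bp (n = 36), 7.17 for 301 to 1000 bp (n = 29) and 7.04 above 1000 bp (n = 18). The middle classes thus held the higher medians, and their quartiles overlapped widely, from 4.78 to 7.06 at 0 to 100 bp and from 5.73 to 11.8 at 201 to 300 bp.

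**Figure D3:**
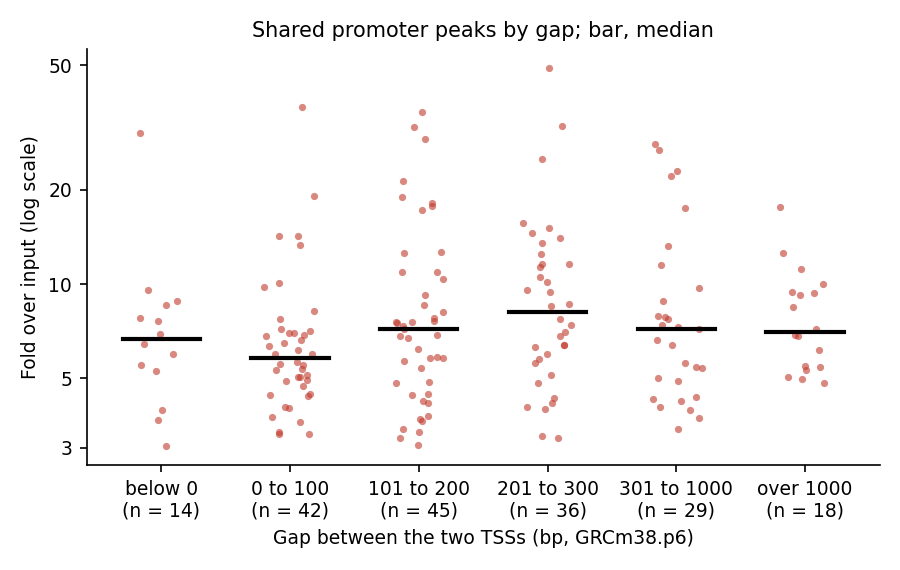
Authors' fold over input (y axis, log scale) of shared peaks by the gap between both TSSs in bp (x axis), 1 point per peak and a bar at the median. The medians lie between 5.80 at gaps of 0 to 100 bp and 8.12 at gaps of 201 to 300 bp, with wide overlap of the points.

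The strongest shared peak lay between Tcf19, a growth-regulated transcription factor gene, and Cchcr1, which codes for a coiled-coil protein. It had a fold of 49.01, 515 tags and a height of 297 on mm9 chr17:35653637-35653937, with the window over the Tcf19 start and 107 bp upstream of that of Cchcr1. The peak between Cnpy4 and Taf6, which codes for a part of TFIID, the factor that recognises core promoters, had the most tags (688) and the greatest height (430) of all shared peaks, with a fold of 36.75 on chr5:138628451-138628751. Both starts lay in its window. Next came the histone pairs Hist1h2ah with Hist1h2bk (fold 35.43) and Hist1h2ag with Hist1h2bj (32.11). The peak at Cdca5 and Zfpl1 followed with a fold of 31.73 and 304 tags on chr19:6084915-6085215. Cdca5 codes for sororin, which keeps sister chromatids together, and Zfpl1 for a zinc finger protein of the Golgi.

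**Figure D4:**
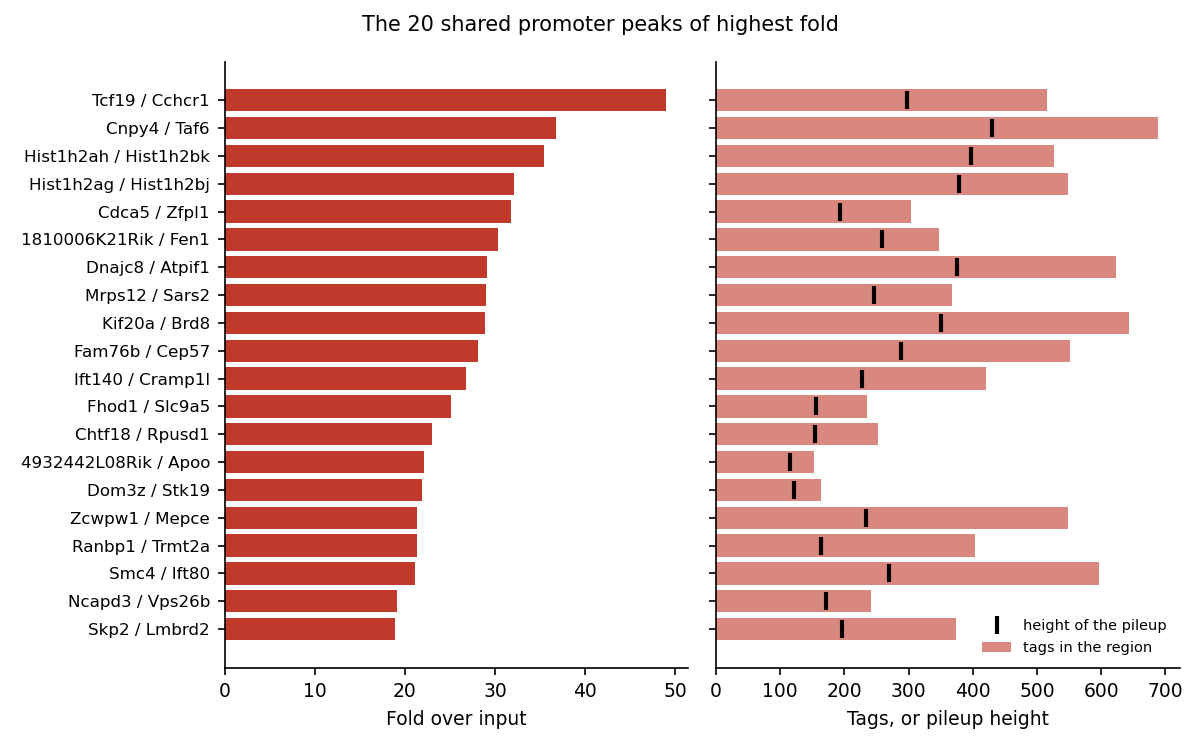
Authors' fold over input (left) and tags in the called region with the pileup height as a black mark (right) for the 20 shared peaks of highest fold, 1 row per gene pair. The highest fold is 49.01, at Tcf19 and Cchcr1, and the lowest shown is 18.94, at Skp2 and Lmbrd2, while tags do not follow the same order.

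Fen1, whose product trims flaps off Okazaki fragments, shared a peak with 1810006K21Rik, with a fold of 30.31 and 347 tags on chr19:10278309-10278609. The window lay 50 bp past the Fen1 start and over the other one, and the transcribed parts overlapped by 191 bp in RefSeq. Dnajc8, a J-domain protein gene, and Atpif1, which codes for the inhibitor of the mitochondrial ATP synthase, were named for the same peak with a fold of 29.15 and 623 tags. Its window held the Dnajc8 start, 1657 bp from that of Atpif1. A second shared peak of this pair held the Atpif1 start and had a fold of 5.53 with 133 tags. Fbxo46 and Gm4969 also had separate peaks, with folds of 5.48 over the Fbxo46 start and 5.44 at 33 bp upstream of the Gm4969 start, so that the 344 peaks covered 342 different pairs or triplets.

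The 10 peaks of highest fold were completed by 3 more pairs. Mrps12, a protein of the mitochondrial ribosome, and Sars2, the mitochondrial seryl-tRNA synthetase, shared a peak with a fold of 29.05 and 367 tags on chr7:29526816-29527116, with both starts in the window. Kif20a, a kinesin of cytokinesis, and Brd8, a bromodomain protein gene, had a fold of 28.89 with 644 tags. The window there lay 129 bp inside Kif20a and 151 bp upstream of Brd8. Cep57, a centrosome protein gene, and Fam76b had a fold of 28.15 with 552 tags. At the other end of the range, the folds were 3.03 at Snap29 and Pi4ka, 3.06 at Dbf4 and Slc25a40, and 3.14 at Agpat1 and Rnf5. These peaks had 170, 227 and 209 tags, beside a median of 197.5 tags over the shared peaks. Their false discovery rates were 5.51%, 6.28% and 7.84%, against a median of 0.605% over the shared peaks.

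By lists of genes grouped by role, 59 of the 344 shared peaks held a gene of replication, repair, mitosis or histones. Their median fold was 9.43 (quartiles 7.05 and 14.7), against 6.67 (5.02 and 9.17) at the other 285. A fold of at least 10 was found in 27 of the 59 (45.8%) and in 57 of the 285 (20%), beside the 12.8% of all listed peaks. Of the 20 strongest shared peaks 8 held such a gene, and of the 100 weakest 8 did. The higher folds were not particular to shared promoters. At the single-gene promoter peaks of the same lists the medians were 13.8 for replication, 10.09 for repair, 9.765 for mitosis and 9.83 for histones. Over all single-gene promoter peaks the median was 6.43. The lists were made with earlier results of these data known, so these counts are descriptions.

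**Figure D5:**
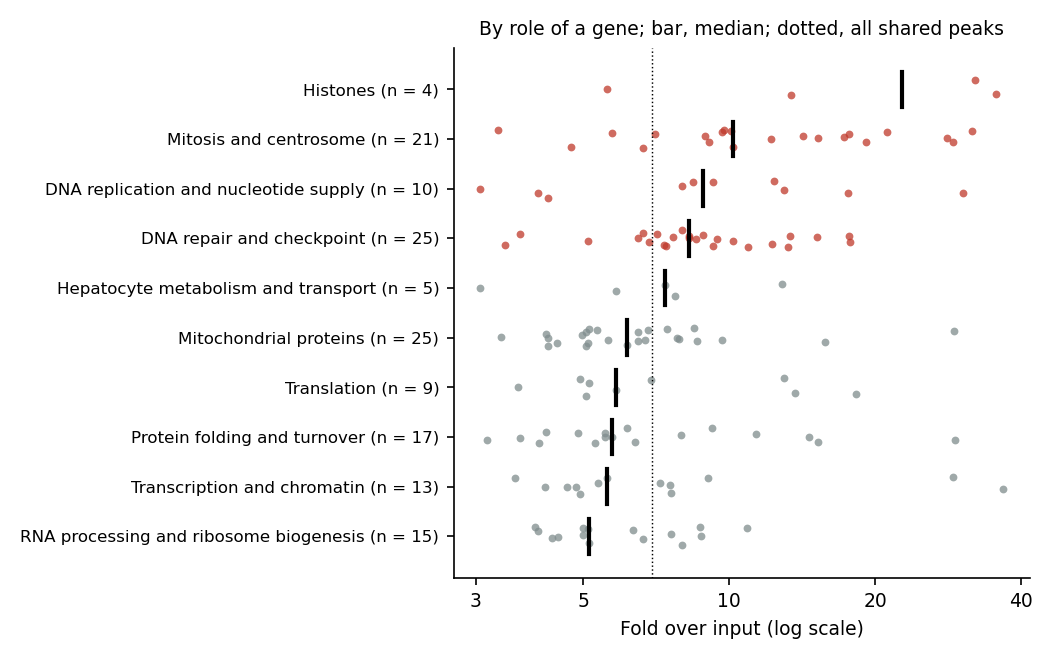
Authors' fold over input (x axis, log scale) of shared peaks that hold a gene of each list, 1 point per peak, with a bar at the list's median and a dotted line at the median of all 344 shared peaks (6.91). Histones, mitosis, replication, repair and hepatocyte metabolism have medians right of the dotted line, from 22.8 down to 7.37, and the other 5 lists left of it.

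Histone genes make the protein spools of new chromatin and often lie in H2A and H2B pairs that start back to back. Of 15 histone genes with a promoter peak, 7 had it at a shared promoter (46.7%), against 23.2% of all 2955 genes with a promoter peak. Hist1h2ah and Hist1h2bk had a fold of 35.43 with 527 tags on chr13:22127396-22127696. Hist1h2ag and Hist1h2bj followed with 32.11 and 549 tags on chr13:22134794-22135094, and Hist1h4d, with Gm17658, had 13.41 and 475 tags. The third H2A and H2B pair, Hist1h2ai with Hist1h2bl, was far weaker, with a fold of 5.58 and 76 tags. Histone genes are near-identical copies, and the labels do not say how reads with several matches were treated, so their values are uncertain.

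Of the mitosis and centrosome list, 82 genes had a promoter peak and 22 of them (26.8%) a shared one, near the 23.2% over all genes with a promoter peak. These lay at 21 peaks with a median fold of 10.19. Several of the genes code for subunits of the rings that hold or fold chromosomes. Smc4, of condensin, shared a peak with the ciliary transport gene Ift80 (fold 21.18, 596 tags). Ncapd3, of condensin II, shared one with Vps26b of the retromer, with a fold of 19.11 and 241 tags, and the window lay 396 bp inside Ncapd3. Smc1a, of cohesin, and Ribc1 had a fold of 17.25 with 235 tags.

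Further down the mitosis list stood Cdca3 with Usp5 (fold 15.26, 541 tags). The lowest fold of the list was 3.33 at Tubgcp4 with Zscan29, with a false discovery rate of 6.62%. Genes of the anaphase promoting complex, which marks cyclins for destruction, were Anapc11 with Thoc4 (fold 14.22), Anapc13 with Cep63 (10.09) and Anapc2 with Ssna1 (7.01). Of centromere and kinetochore genes, Nsl1 with Tatdn3 had 10.19, Cenpn with 2310061C15Rik 9.73, Cenpo with 2410017P09Rik 8.89 and Cenpp with Nol8 6.64. Of spindle pole genes, Haus8 with Myo9b had 12.16, Tubgcp2 with Zfp511 9.66, Tubg1 with Fam134c 9.07 and Cep76 with Psmg2 5.73. The kinesin gene Kif18a, with Mettl15, had a fold of 4.72 but 275 tags.

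DNA repair was the list with the most shared promoters among the cell cycle lists: 25 of its 53 genes with a promoter peak (47.2%) had a shared one, against 23.2% over all genes with a promoter peak. The median fold of the 25 peaks was 8.25, with 247 tags. At the 28 single-gene promoter peaks of the list the median fold was 10.09, a difference that was not tested. A fold of at least 10 was reached by 8 of the 25, beside 24.4% of all shared peaks and 12.8% of all listed peaks. The strongest was at Mutyh, a glycosylase that removes mispaired adenine, and Toe1, with a fold of 17.74 and 301 tags on chr4:116480212-116480512. Fancm and Fkbp3 had 17.67 and 385 tags, with the window over the start of Fancm, the translocase of the Fanconi anaemia pathway, and 1457 bp from that of Fkbp3.

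Other Fanconi genes at shared peaks were Palb2 with Dctn5 (fold 13.34), Fancd2 with Tmem111 (12.26), Fancb with Mospd2 (10.19) and Fancf with Gas2 (8.84). Recombination genes were Xrcc3 with Zfyve21 (15.14), Rad51ap1 with D6Wsu163e (13.21), Rad51l3 with Fndc8 (8.25), Rad51c with Tex14 (7.64) and Eme1 with Mrpl27 (5.10). Mismatch repair genes included Pms2 with Aimp2 (10.95) and Pms1 with Ormdl1 (7.08). The helicase genes were Recql5 with Sap30bp (9.43), Recql with Golt1b (8.55) and Wrn with Purg (3.45). Excision repair and polymerase genes were Xrcc1 with 2310033E01Rik (8.25), Xpc with Lsm3 (7.97), Polh with Xpo5 (7.33), Nthl1 with Tsc2 (6.83) and Polk with Col4a3bp (3.70). The end-joining ligase gene Lig4, with Abhd13, had 6.65, and the checkpoint gene Topbp1, with 1300017J02Rik, had 6.47. The false discovery rate was 6.84% at Wrn and 7.7% at Polk, against a median of 0.605% over the shared peaks.

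In the replication list 49 genes had a promoter peak and 10 of them (20.4%) a shared one, against 23.2% over all genes with a promoter peak. The median fold of these 10 peaks was 8.82, against 13.8 at the 39 single-gene promoter peaks of the same list, a difference that was not tested. Behind Fen1 came the histone chaperone gene Asf1b with Gm10644 (fold 17.53, 308 tags), the primase subunit gene Prim2 with 1700001G17Rik (12.94, 216 tags) and the helicase gene Mcm8 with Trmt6 (12.38, 254 tags). Orc6 of the origin recognition complex, with Vps35, had 8.40 and Cdc45 of the replicative helicase, with Ufd1l, 7.99. The polymerase epsilon genes Pole3, with 4933430I17Rik, and Pole, with Pxmp2, had 4.23 and 4.02. Their false discovery rates were 1.84% and 7.16%, against a median of 0.605% over the shared peaks.

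Where 1 gene of a pair stood in these 4 lists and the other did not, the window could be nearer to either. This held for 54 pairs, of which 17 had equal distances. Of the other 37 the listed gene was the nearer one in 28 (75.7%, exact binomial 95% interval 58.8% to 88.2%, over peaks only) and the partner in 9. The lists were made with earlier results of these data known and peaks are not replicates, so this share is a description and was not tested. The window held the start of the listed gene in 34 of the 54 pairs and that of the partner in 25. Both genes stood in the lists at 5 peaks, among them the 3 histone pairs and Anapc13 with Cep63.

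Of the 24 genes of textbook divergent pairs that were looked up, 8 had a promoter peak and 7 of these a shared one. Over all genes with a promoter peak 23.2% had a shared one. The textbook genes were chosen for sharing a promoter, so their count follows largely from that choice and is no result. The 7 genes lay at 4 peaks, of which that of Mrps12 with Sars2 had the highest fold. Tap1, a peptide transporter gene of antigen presentation, shared its peak with CR974422.1 (fold 6.86, 80 tags). Some cell cycle genes outside the lists also stood at strong shared peaks. They are named here for their high folds, after their values were seen. Skp2, which targets the inhibitor p27 for destruction, shared a peak with Lmbrd2 (fold 18.94, 374 tags). Chtf18, of the clamp loader for cohesion, shared one with Rpusd1 (22.96, 252 tags). Rbbp4, a histone binding protein gene, shared one with Zbtb8os (15.35, 337 tags), and Cdk2, the S phase kinase, with Pmel (12.61, 203 tags). Other repair or mitosis genes outside the replication, repair, mitosis and histone lists stood at shared peaks too. Their lower folds follow from how the genes above were chosen. Examples were Tacc3 with Tmem129 (9.21), Rad9b with Vps29 (7.55), Trip13 with Brd9 (7.18) and Helq with Mrps18c (6.71). The median of all shared peaks was 6.91.

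Genes for mitochondrial proteins had shared promoters often, with a median fold under the 6.91 of all shared peaks. Of 67 such genes with a promoter peak 29 (43.3%) had a shared one, against 23.2% over all genes with a promoter peak. Their 25 peaks had a median fold of 6.15, close to 6.32 at the 38 single-gene peaks of the list. A fold of at least 10 was reached by 2 of the 25, below the 24.4% of all shared peaks and the 12.8% of all listed peaks, with no test of the difference. At 4 peaks both genes were mitochondrial. These were Mrps12 with Sars2, Mrpl43 with the helicase gene Peo1 (fold 6.81), Mrpl46 with Mrps11 (6.15) and Ndufb5 with Mrpl47 (4.19). After Mrps12 the highest folds were 15.74 at Coq6, a gene of coenzyme Q synthesis, with Fam161b, and 9.66 at Mrpl13 with Mtbp.

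Translation genes had 9 of 51 (17.6%) at shared promoters, against 23.2% over all genes with a promoter peak, and a median fold of 5.84. The highest were Eif3k with Map4k1 (18.22, 384 tags), the ribosomal protein gene Rpl7 with Rdh10 (13.66, 274 tags) and Eif1ad with Banf1 (12.95, 171 tags). RNA processing and ribosome biogenesis genes had 15 of 59 (25.4%, near the same 23.2%) and a median fold of 5.14. Their highest were 10.90 at Hnrnph2 with Gla, 8.74 at Rrp1b with Hsf2bp and 8.68 at Sf3a2 with Plekhj1.

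Beside the 23.2% over all genes with a promoter peak, transcription and chromatin genes had 13 of 66 (19.7%) at shared promoters. Their median fold was 5.60, and the highest folds were those at Taf6 and Brd8. Protein folding and turnover genes had 16 of 61 (26.2%) at 17 peaks, with a median of 5.73. Usp5, a deubiquitinase gene, shared the Cdca3 peak, and Hspa14 with Cdnf had a fold of 14.57 and 267 tags. Of 45 genes of hepatocyte metabolism and transport with a promoter peak 6 had a shared one (13.3%, against the 23.2% over all genes with a promoter peak). These were the mitochondrial carrier gene Slc25a11 with Rnf167 (12.86, 336 tags), Mvk, the mevalonate kinase of cholesterol synthesis, with Mmab (7.74, 132 tags), the thiolase gene Acaa1a with Myd88 (7.37, 166 tags), Acad8 with Thyn1 (5.83) and Slc25a40 with Dbf4. Several lists were formed by the start of gene symbols and so hold some genes of other function.

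The single peak with 3 promoters lay on chr7:31348485-31348785 between U2af1l4, a splicing factor gene, Psenen, a subunit of the gamma-secretase that cuts Notch, and Tmem149. It had a fold of 4.14, 156 tags and a false discovery rate of 3.50%. The window lay 145 bp inside U2af1l4, 281 bp upstream of Psenen and 1660 bp upstream of Tmem149. Across chromosomes, shared peaks were most numerous on chromosome 11 (36), chromosome 7 (35) and chromosomes 5 and 8 (28 each). As a share of promoter peaks they ran from 7.58% on chromosome 18 (5 of 66) to 17.6% on chromosome 13 (15 of 85), and the 1 promoter peak on chromosome Y was not shared.

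Across the 313 shared peaks with a promoter sequence for at least 1 gene, 37 (11.8%) had a long E2F word in 1 of these promoters. Their median fold was 9.24 (quartiles 6.47 and 14.98), against 6.81 (5.02 and 9.29) at the 276 without one. A fold of at least 10 was found in 48.6% with and 21.4% without the word, beside 12.8% of all listed peaks. The quartiles of both sets overlap, no test was run, and a peak with more promoter records had more bases to hold a word.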

How the data were processed

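Chromatin of hepatocytes was immunoprecipitated with an anti-E2F1 antibody and sequenced beside input. The submitters' processing notes list Bowtie2 (2.1.0) and the builds mm9 and NCBIM37. The deposited column names show that the authors called peaks with MACS; its version and settings, and whether replicates were pooled, were not given in the sources used here. Per peak, the authors deposited the count of tags in the region, the height as a signal of the pileup, the fold as a ratio over the background from input, a score made from the negative log10 of p (named -log10(pvalue) with a factor of 10 in the header, at least 50 in the list), and the false discovery rate as a percent (at most 8.57). A deposited column called FERR is unexplained and was not used.

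Rows were grouped by peak, and peaks with promoter rows for at least 2 symbols were kept; 1 peak naming 2 IDs of 1 symbol was left out. Symbols were matched to RefSeq by symbol or unique synonym (666 of 685 genes), and promoter records existed for 553. Gaps between starts come from the RefSeq records that best fit the mm9 distances, with a tolerance of 50 bp. Among equal fits the smallest gap was taken. Shares have exact (Clopper-Pearson) 95% intervals and medians binomial order-statistic intervals, both for counting over peaks only. No test was run, since the design has 1 record a group. The grouping, the gap arithmetic and the word search were tested on simulated data. The named pairs are the 10 of highest fold, the extremes of tags, height, length, fold and gap, the peak with 3 genes, all pairs with a gene of the replication, repair, mitosis, histone or textbook pair lists, and the 3 strongest of each other list; a few of these pairs are not reported here. The members and lists were chosen with earlier results of these data known. Python (3.11.15), pandas (2.3.3) and SciPy (1.17.1) were used. Alternatives changed the promoter definition, the peak threshold, the genes counted, the chromosomes and the E2F word.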

Additional observations from a re-analysis of the deposited data

How the results depend on the processing

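Of 55 values recomputed under an alternative, 43 stayed within the 95% interval of the reported value or, for the number of peaks, within 1.5 times of it, and 12 did not. With peaks of a false discovery rate of at most 1%, the number of shared peaks was 228, the median tags 226.5, the median fold 8.61, the median height 84.5 and the share with a fold of at least 10 was 36.8%. With peaks above the list's median score of 94.25, the median tags were 221, the median fold 7.99, the median height 79 and the share with a fold of at least 10 was 32.4%; both settings drop weak peaks by construction. With window edges within 500 bp of both starts, 79.2% of windows held a TSS. With edges within 850 bp whatever the authors' class, 86.9% of pairs were divergent. With the short E2F word, 39.6% of shared peaks had one in a promoter. No paired analysis was possible because the files hold no values per replicate. The list shows only called peaks, so a pair of promoters without a listed peak is not shown to be unbound, and the authors' assignment sets which genes are named.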
